A study of Mus musculus with 12 samples.

Results

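The genes described here are the cyclins of the A, B, D and E types, the numbered cyclin-dependent kinases, the kinase inhibitors, the E2F factors, the pocket proteins of the retinoblastoma family, the MCM genes of replication licensing, and a set of replication and mitosis genes led by Mki67. They were chosen by name. Every probe set was taken whose platform gene symbol fell in these families or was among 17 listed replication, mitosis and pocket protein genes. The rule itself uses no measured value, but the genes were chosen with earlier results of these data known. The rule gave 70 genes, each with 1 probe set, of 25428 probe sets in all. Expression was measured on 12 Affymetrix arrays, each hybridised with RNA of sinusoidal endothelium, the fenestrated lining of the liver's capillaries. The NICD-OE-HEC group, 6 samples, came from mice with Clec4g-Cre(tg/wt) and, in the same animals, Rosa26-N1ICD-IRES-GFP. There a Cre named for the sinusoidal gene Clec4g turns on the Notch1 intracellular domain and a GFP reporter from the Rosa26 locus. The Control group, 6 samples, is given in the labels only as control mice, and neither its alleles nor the age or sex of the animals is stated in the sources used here. Every sample pooled the livers of 3 mice, and its cells were picked with magnetic beads against CD146 after collagenase digestion and a density gradient. The comparison asks what differs when Notch signalling is forced on in these cells.

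A cell leaves its resting state when D cyclins, bound to Cdk4 or Cdk6, phosphorylate the retinoblastoma protein and its relatives and so free E2F factors to transcribe the genes of DNA replication. Cyclins E and A with Cdk2 then start replication from origins that were licensed by loading of the MCM helicase, and cyclins A and B with Cdk1 drive mitosis. Inhibitors of the INK4 family bind Cdk4 and Cdk6, those of the CIP/KIP family bind a wider range of cyclin and kinase complexes, and both can hold a cell at rest. Endothelium of the adult liver is largely quiescent, and Notch signalling is known in other vascular beds for restraining endothelial division.

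The stretches of 250 bases upstream of the annotated transcription start are shown for 4 of the genes that differed between the groups, because CCAAT and TTTGAA are known elements of mitotic promoters and Cdk1 is the mitotic gene that was called. They were taken from RefSeq (GRCm38.p6) by gene symbol and run 5′ to 3′ on the gene's strand. Capitals mark, on either strand, CCAAT (bound by the factor NF-Y), TTTGAA (the cell cycle homology region of mitotic genes), GCGGGAA (an E2F site) and GTGGGAA (a site of RBPJ, the DNA-binding partner of the Notch intracellular domain). The motifs did not overlap in these 4 windows. Cdk6 is at chr5:3343643-3343892 on the plus strand, and Cdk1 is at chr10:69352913-69353162 on the minus strand. Cdk18 is at chr1:132139686-132139935 and Mcm3 at chr1:20820313-20820562, both on the minus strand.
Cdk6: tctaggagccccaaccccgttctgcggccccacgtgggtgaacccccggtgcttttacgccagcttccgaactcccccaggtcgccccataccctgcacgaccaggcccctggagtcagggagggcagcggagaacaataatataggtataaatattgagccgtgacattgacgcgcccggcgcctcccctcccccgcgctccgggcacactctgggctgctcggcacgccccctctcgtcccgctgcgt
Cdk1: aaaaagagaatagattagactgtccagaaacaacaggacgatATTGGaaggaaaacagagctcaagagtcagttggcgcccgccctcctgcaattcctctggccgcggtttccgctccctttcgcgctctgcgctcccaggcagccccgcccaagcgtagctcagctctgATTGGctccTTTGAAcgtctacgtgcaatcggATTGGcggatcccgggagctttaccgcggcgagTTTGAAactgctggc
Cdk18: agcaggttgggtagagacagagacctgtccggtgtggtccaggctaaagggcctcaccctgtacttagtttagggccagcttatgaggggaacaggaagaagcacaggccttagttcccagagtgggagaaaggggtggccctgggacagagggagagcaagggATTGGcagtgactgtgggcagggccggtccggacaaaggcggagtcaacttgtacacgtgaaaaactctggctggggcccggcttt
Mcm3: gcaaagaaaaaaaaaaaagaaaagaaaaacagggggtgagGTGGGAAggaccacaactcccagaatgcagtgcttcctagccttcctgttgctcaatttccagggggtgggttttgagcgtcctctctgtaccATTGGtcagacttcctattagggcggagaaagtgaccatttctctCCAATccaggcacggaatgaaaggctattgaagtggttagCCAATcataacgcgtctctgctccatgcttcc
The Cdk1 window held TTTGAA with its first base 15 and 71 bases before the start and CCAAT 48, 80 and 208 bases before it, whereas the Cdk6 window held none of the 4 motifs. The Cdk18 window held a single CCAAT at 86 bases. The Mcm3 window held CCAAT at 32, 72 and 117 bases and GTGGGAA at 210 bases. Of the 70 genes, 55 matched the RefSeq promoter table, with 63 promoters, and the called genes Ccnd2 and Cdkn1c have no entry in that table. Of 11 mitotic genes 9 were in that table, with 9 promoters, and of 10 licensing genes 9 were, with 10 promoters. Among mitotic genes, CCAAT was present in 9 of 9 promoters, against 33.8% of all 32851 promoters of the same length, and TTTGAA in 5 of 9, against 16.0%. Among licensing genes CCAAT was in 8 of 10 promoters and TTTGAA in 1 of 10, and over all 63 promoters of the genes described here CCAAT was in 36 and TTTGAA in 13. GCGGGAA was in 0 of the 9 mitotic promoters and in 3 of 10 promoters of licensing genes, against 3.82% of all. GTGGGAA was in 2 of the 63 promoters, 3.17%, against 5.42% of all. These matches describe letters in a window and were not tested for binding.

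The arrays of a group correlated with each other at 0.976 to 0.992 across probe sets. On the second principal component, 16.4% of the variance, Control replicate 2 and NICD-OE-HEC replicate 4 stood apart at -48.5 and -30.3, with the other 10 arrays between -8.51 and 22.3. Values are log2 RMA expression, and the array median, 3.67, is used here as a rough mark of low signal. Of the 70 genes, 11 had both group means below it: Bub1, Ccna1, Ccnb3, Ccne2, Cdc25c, Cdc6, Cdk3, Cdk14, Cdk15, E2f8 and Mcm8. The 3 marker genes Mki67, Cdk1 and Cdkn1a lay above the median on every array. Because all arrays share their quantiles, a shift of most genes in the same direction would not show.

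The genes that differed between NICD-OE-HEC and Control cells were single genes of different steps of the cycle, with some kinases outside the core cycle. At an adjusted p under 0.05 in limma, 4 of the 70 genes were higher in NICD-OE-HEC (Cdk6, Cdk1, Cdkn1c and Cdk14) and 4 were lower (Ccnd2, Cdk18, Cdk20 and Mcm3). That is 11.4% of the genes, beside 10.5% of all 25428 probe sets, a share near the background, from which nothing is read about the 70 genes as a set. Of all probe sets, 4.89% were higher and 5.59% lower. Calls that also reached a log2 difference of 1 were Cdk6 and Cdk18, beside 2.09% of all probe sets. No overlap between NICD-OE-HEC and Control arrays was seen for 4 of the 70 genes, 5.71%, beside 6.68% of all probe sets. The median difference of the 70 genes was 0.02, beside -0.01 for all probe sets, with a range from -1.01 to 1.38. At an unadjusted p under 0.05 the count was 23 genes, 32.9%, 15 of them higher and 8 lower, beside 21.7% of all probe sets. Without the 2 arrays that stood apart, 5 genes were higher and 5 lower. Of the 8 calls 6 were shared, while Cdk14 and Mcm3 were lost and Cdk10, Cdkn2b, Mcm9 and Top2a were gained. For 61 of the 62 genes that were not called, the 95% interval of the difference lay within 1 log2 unit of 0.

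**Figure D1:**
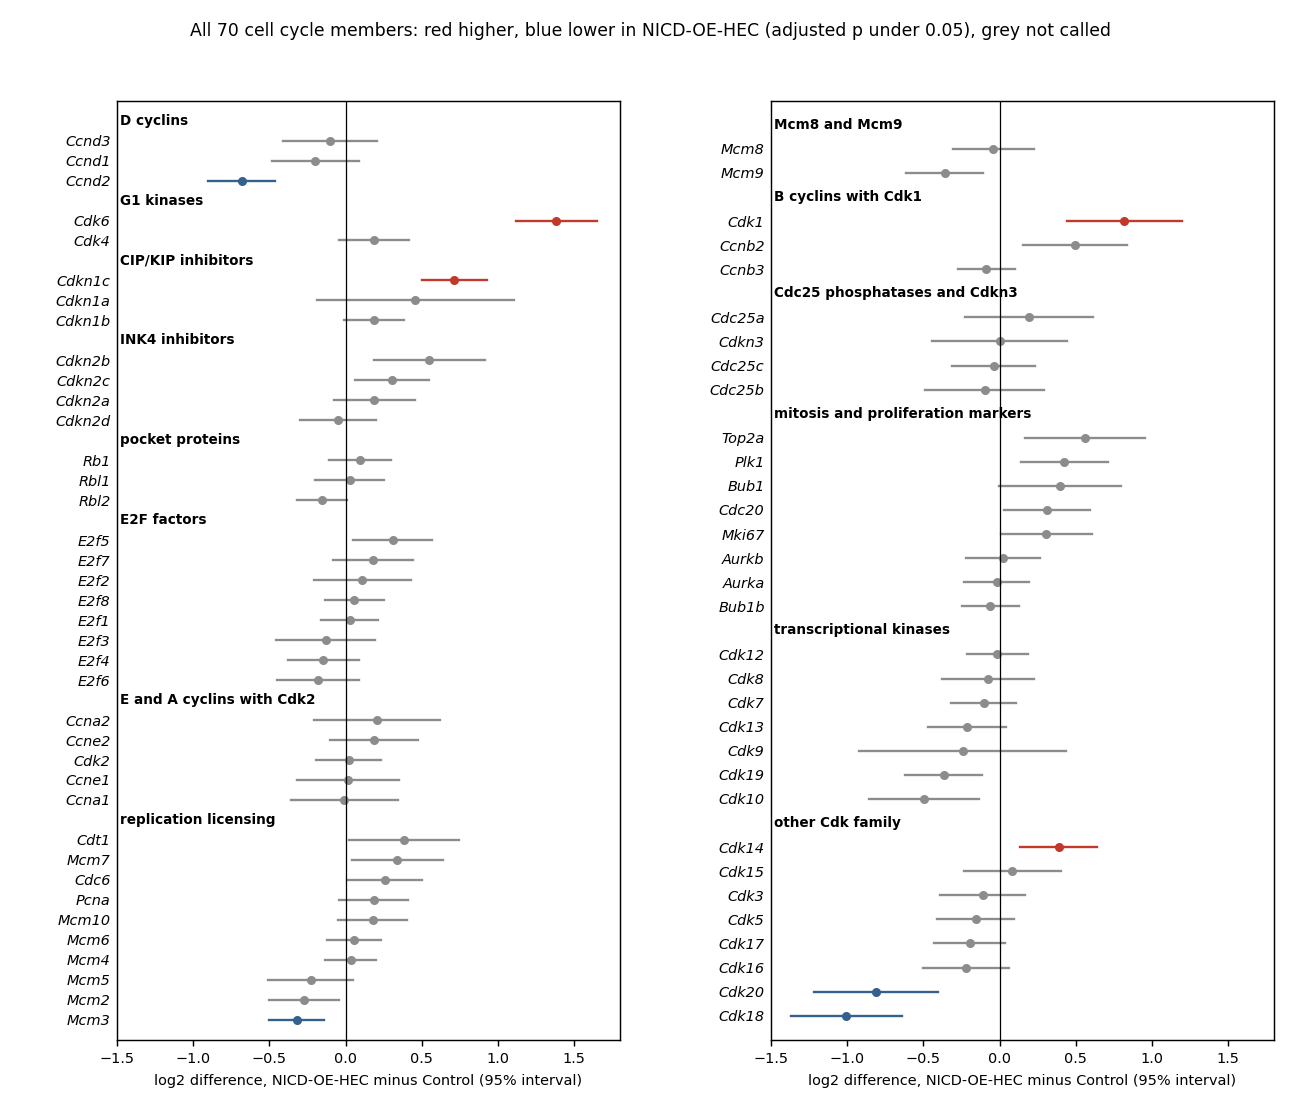
Log2 difference (NICD-OE-HEC minus Control, x axis) of each of the 70 genes, grouped by role, with its 95% interval from limma (lines). Red marks the 4 genes called higher in NICD-OE-HEC, blue the 4 called lower and grey the 62 not called, most of which lie within 0.5 of 0.

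At entry into the cycle, Cdk6 rose and Ccnd2 fell. Cdk6, a kinase that partners D cyclins and is prominent in blood and endothelial precursors, had a lowest, median and highest value of 6.03, 6.33 and 6.57 in NICD-OE-HEC, against 4.61, 4.96 and 5.29 in Control. Every NICD-OE-HEC array was above every Control array. The log2 difference was 1.38 (SE 0.13, 95% interval 1.11 to 1.65, limma adjusted p = 2.70e-06), or 2.61-fold, and it stayed between 1.32 and 1.45 when single arrays were left out. Its paralogue Cdk4 was 8.92 ± 0.11 in NICD-OE-HEC and 8.73 ± 0.23 in Control (SD, n = 6 each), a difference of 0.19 (95% interval -0.04 to 0.41, limma adjusted p = 0.356) that was not called.

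Of the D cyclins, the regulatory partners of both kinases, Ccnd2 fell. Its values were 8.12, 8.25 and 8.40 (lowest, median, highest) in NICD-OE-HEC, against 8.71, 8.87 and 9.32 in Control, without overlap. The log2 difference was -0.68 (SE 0.10, 95% interval -0.90 to -0.46, limma adjusted p = 3.30e-04), and over single arrays left out it ranged from -0.73 to -0.60. Ccnd1, the D cyclin induced by growth factors, differed by -0.20 (95% interval -0.49 to 0.09, limma adjusted p = 0.454), with Control replicate 1 at 8.57 far below the other 5 Control arrays (9.12 to 9.36). Without that array the Ccnd1 difference was -0.31 (limma adjusted p = 0.0825). Ccnd3 differed by -0.10 (95% interval -0.41 to 0.20, limma adjusted p = 0.768). In bulk samples such as these, fewer cells of a type and less RNA per cell cannot be told apart.

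**Figure D2:**
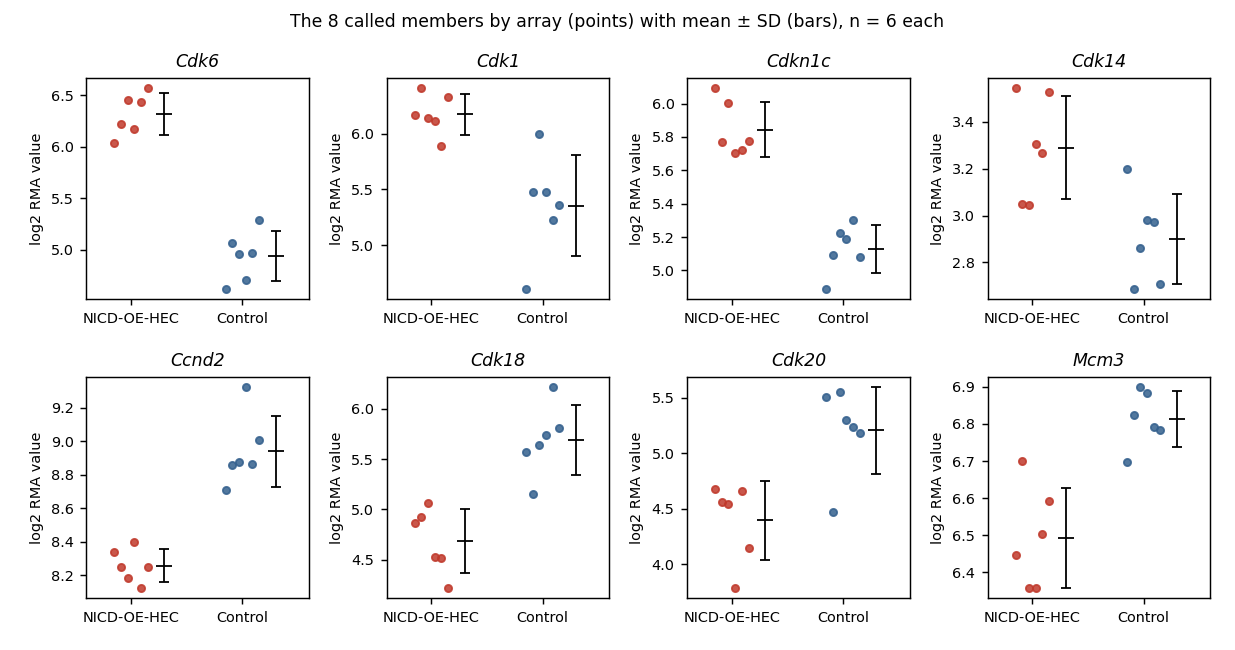
Log2 RMA value (y axis, scale set per gene) of the 8 called genes on each array, NICD-OE-HEC in red and Control in blue, with mean ± SD as bars (n = 6 each). The groups do not overlap for Cdk6, Cdkn1c, Ccnd2 and Cdk18, while for Cdk1, Cdk14, Cdk20 and Mcm3 at least 1 array falls in the range of the other group.

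Among the inhibitors, the CIP/KIP gene Cdkn1c, an imprinted gene whose product p57 acts in development and in quiescent cells, rose. It had a lowest, median and highest value of 5.70, 5.77 and 6.09 in NICD-OE-HEC, against 4.89, 5.14 and 5.30 in Control. All 6 NICD-OE-HEC arrays lay above all Control arrays, and the log2 difference was 0.71 (SE 0.10, 95% interval 0.50 to 0.92, limma adjusted p = 1.59e-04), or 1.64-fold. Cdkn1b, which encodes p27, was 7.14 ± 0.15 in NICD-OE-HEC and 6.96 ± 0.11 in Control (SD, n = 6 each). Its difference of 0.19 was not called (95% interval -0.01 to 0.38, limma adjusted p = 0.255), although 5 of 6 NICD-OE-HEC arrays were above every Control array.

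Cdkn1a, which encodes p21 and is induced by p53 and by stress, was the most variable of the CIP/KIP genes. Its values were 6.58, 7.07 and 8.70 (lowest, median, highest) in NICD-OE-HEC, against 6.20, 6.82 and 7.33 in Control. The upper end was set by NICD-OE-HEC replicate 5, the other 5 arrays of that group lying between 6.58 and 7.42. The difference of 0.46 was not called (95% interval -0.19 to 1.10, limma adjusted p = 0.440), and without that array it was 0.17 (limma adjusted p = 0.731). NICD-OE-HEC replicate 5 also had the highest mean of 12 early-response genes that cell isolation can induce, 9.74, the other NICD-OE-HEC arrays lying between 7.99 and 8.84 and the Control arrays between 6.66 and 8.13. The part of the early response in the Cdkn1a values was not tested.

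The 4 INK4 inhibitors gave 0 calls, with 2 of them under an unadjusted p of 0.05. Cdkn2b, which encodes p15, came closest, with 5.21, 5.65 and 6.03 (lowest, median, highest) in NICD-OE-HEC against 4.75, 5.02 and 5.69 in Control. Control replicate 2, at 5.69, was the only Control array above 5.14. The difference was 0.55 (95% interval 0.18 to 0.91, limma adjusted p = 0.0544). It was called without Control replicate 2 (0.67, limma adjusted p = 0.00801), without NICD-OE-HEC replicate 1 (0.60, 0.0474) or 2 (0.63, 0.0301), with array weights, and when the dimmest probe sets were left out. Cdkn2c (p18) differed by 0.31 (limma adjusted p = 0.114), with 5 of 6 NICD-OE-HEC arrays above every Control array. Cdkn2a, whose locus encodes p16 and p19Arf, differed by 0.19 (limma adjusted p = 0.444), and Cdkn2d by -0.05 (limma adjusted p = 0.877).

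Paralogues were also set against each other by their log2 ratio within each array, in the 3 families that hold a called gene and have 2 or 3 members at the same step. These 7 pairs were chosen after the values were seen, so the ratios are a description, with no test. Cdk6 relative to Cdk4 was 1.20 higher in NICD-OE-HEC, and Ccnd2 differed by -0.48 relative to Ccnd1 and by -0.58 relative to Ccnd3. Cdkn1c relative to Cdkn1b differed by 0.53, and relative to Cdkn1a by 0.26. A ratio within an array shows unequal change and not that either gene stayed level.

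**Figure D3:**
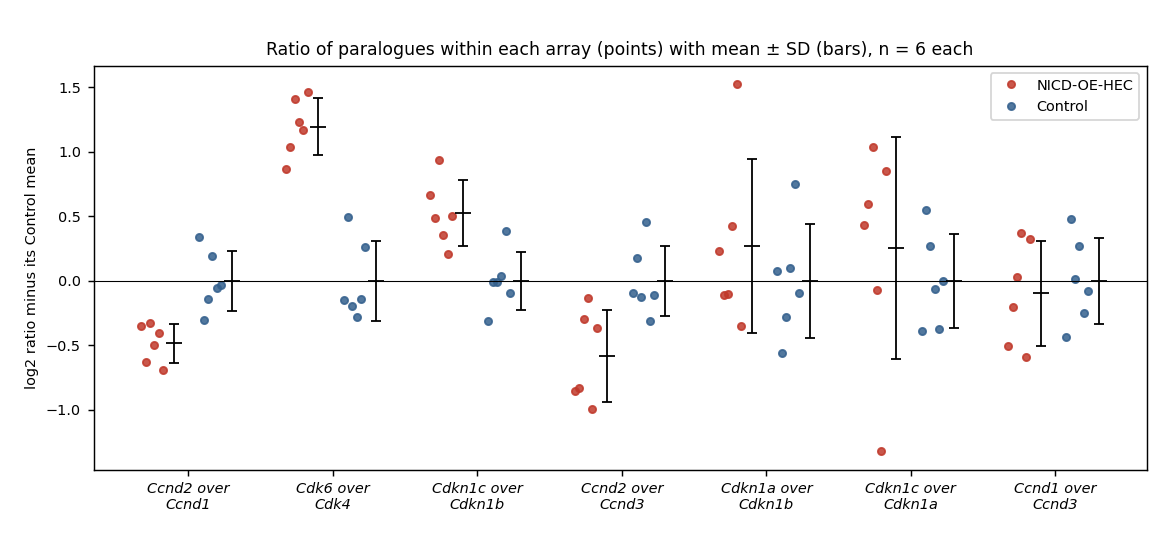
Log2 ratio of 2 paralogues within each array, less the Control mean of that ratio (y axis), for 7 pairs, with NICD-OE-HEC in red, Control in blue and mean ± SD as bars (n = 6 each). The groups separate for Cdk6 over Cdk4 and for Ccnd2 over Ccnd1, and NICD-OE-HEC replicate 5 is the far point in the pairs with Cdkn1a.

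The pocket proteins and the E2F factors gave 0 calls among 11 genes, and 1 of them, E2f5, had an unadjusted p under 0.05. Rb1, the retinoblastoma gene, was 7.67 ± 0.17 in NICD-OE-HEC and 7.57 ± 0.10 in Control (SD, n = 6 each), a difference of 0.09 (95% interval -0.11 to 0.29, limma adjusted p = 0.667). Its relatives Rbl1 (p107) and Rbl2 (p130, the pocket protein of resting cells) differed by 0.03 and -0.15. Rbl2 was below every Control array on 4 of 6 NICD-OE-HEC arrays, and its limma adjusted p was 0.267. E2f1, an activator of replication genes, differed by 0.03 (95% interval -0.16 to 0.21, limma adjusted p = 0.918), and the repressor E2f8 by 0.06. The 8 E2F differences ran from -0.18 for E2f6 to 0.31 for E2f5.

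The cyclins E and A with Cdk2, which start DNA replication, gave 0 calls among 5 genes, and 0 had an unadjusted p under 0.05. Cdk2 was 6.08 ± 0.15 in NICD-OE-HEC and 6.06 ± 0.16 in Control (SD, n = 6 each), with a 95% interval of the difference from -0.19 to 0.23. Ccne1 differed by 0.02 (95% interval -0.32 to 0.35). Ccna2, the A cyclin of somatic cells, differed by 0.21 (limma adjusted p = 0.625) with Control replicate 1, at 3.96, below the other 5 Control arrays (4.71 to 5.51). Without that array the Ccna2 difference was 0.0251 (limma adjusted p = 0.953), and without Control replicate 2, the highest, it was 0.34 (0.268).

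Licensing genes were mixed, with 0 of 10 called higher and 1 called lower, and 5 of 10 under an unadjusted p of 0.05, beside 21.7% of all probe sets. Mcm3, a subunit of the MCM helicase, had values of 6.36, 6.48 and 6.70 (lowest, median, highest) in NICD-OE-HEC, against 6.70, 6.81 and 6.90 in Control. On 5 of 6 NICD-OE-HEC arrays it was below every Control array. The log2 difference was -0.32 (SE 0.08, 95% interval -0.50 to -0.14, limma adjusted p = 0.0217), or 1.25-fold lower. The call was lost without Control replicate 3 (limma adjusted p = 0.0569), Control replicate 4 (0.0524) or NICD-OE-HEC replicate 3 (0.0522), and without the 2 arrays that stood apart (0.0560). The other subunits of the hexamer were not called, with Mcm2 at -0.27 (limma adjusted p = 0.141), Mcm5 at -0.23 (0.343), Mcm4 at 0.03, Mcm6 at 0.06 and Mcm7 at 0.34 (0.162).

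The loaders Cdc6 and Cdt1, which place the helicase on origins, differed by 0.26 and 0.39 without a call (limma adjusted p = 0.206 and 0.195). Cdt1 on Control replicate 2 was 3.48, against 4.35 to 4.61 on the other Control arrays, and without it the Cdt1 difference was 0.21. Mcm10, which helps to start the fork, differed by 0.18 (limma adjusted p = 0.378). Pcna, the sliding clamp of the replication fork, was 10.18 ± 0.17 in NICD-OE-HEC and 9.99 ± 0.18 in Control (SD, n = 6 each; limma adjusted p = 0.350). The mean of the 10 genes was 5.64 to 5.85 on NICD-OE-HEC arrays and 5.57 to 5.81 on Control arrays, ranges that overlap nearly throughout. Mcm8 and Mcm9, a related helicase pair of DNA repair, differed by -0.04 and -0.36 and were not called (limma adjusted p = 0.908 and 0.0717), though Mcm9 was called without Control replicate 2.

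At mitosis 1 gene passed the test. Cdk1, the kinase that drives mitosis, rose, with a lowest, median and highest value of 5.89, 6.15 and 6.41 in NICD-OE-HEC, against 4.60, 5.41 and 5.99 in Control. On 5 of 6 NICD-OE-HEC arrays it was above every Control array, and Control replicate 1 was the lowest of the 12. The log2 difference was 0.82 (SE 0.18, 95% interval 0.44 to 1.20, limma adjusted p = 0.00624), or 1.76-fold. It was 0.67 without Control replicate 1 (limma adjusted p = 0.00554) and ranged up to 0.95 without Control replicate 3, keeping its call with each single array left out.

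No other B cyclin or mitosis marker passed the adjusted test. An unadjusted p under 0.05 was found for 2 of the 3 genes in the group of B cyclins with Cdk1, Cdk1 included. It was also found for 4 of the 8 mitosis markers (Mki67, Top2a, Cdc20 and Plk1). All of these genes were higher in NICD-OE-HEC. Of all 25428 probe sets, 21.7% had such a p in either direction, and 2526 had it and were higher. Ccnb2, a B cyclin, differed by 0.50 (limma adjusted p = 0.0644) and was called without Control replicate 3 or 5 or NICD-OE-HEC replicate 5. Top2a, the topoisomerase that untangles chromosomes, differed by 0.56 (limma adjusted p = 0.0717) and Plk1, a kinase of mitotic entry, by 0.42 (0.0586). Mki67, the widely used proliferation marker, had 5.59, 5.95 and 6.31 (lowest, median, highest) in NICD-OE-HEC, against 5.38, 5.53 and 6.01 in Control, and differed by 0.31 (95% interval 0.01 to 0.61, limma adjusted p = 0.215). Only 2 of 6 NICD-OE-HEC arrays exceeded every Control array for it. Cdc20, the activator of the anaphase-promoting complex, differed by 0.31 (0.180) and the checkpoint kinase Bub1 by 0.40 (0.233).

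The Aurora kinases and a further checkpoint kinase lay near 0, with Aurka at -0.02, Aurkb at 0.02 and Bub1b at -0.06. Averaged over 11 mitotic genes (the 8 mitosis and proliferation markers with Cdk1, Ccna2 and Ccnb2), the log2 level was 4.76 to 5.13 on NICD-OE-HEC arrays and 4.37 to 4.94 on Control arrays. The upper end of Control was replicate 3 and the lower end replicate 1. Top2a was called without Control replicate 2 (0.63, limma adjusted p = 0.0432) or NICD-OE-HEC replicate 4 (0.65, 0.0405), and without both (0.72, 0.0229). Plk1 was called without Control replicate 1 (0.48, limma adjusted p = 0.0426) or 3 (0.49, 0.0362), without NICD-OE-HEC replicate 5 (0.49, 0.0286), and when the dimmest probe sets were left out. The Cdc25 phosphatases, which activate the kinases, and the phosphatase Cdkn3 gave 0 calls among 4 genes, with differences from -0.10 to 0.19 and 0 under an unadjusted p of 0.05.

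**Figure D4:**
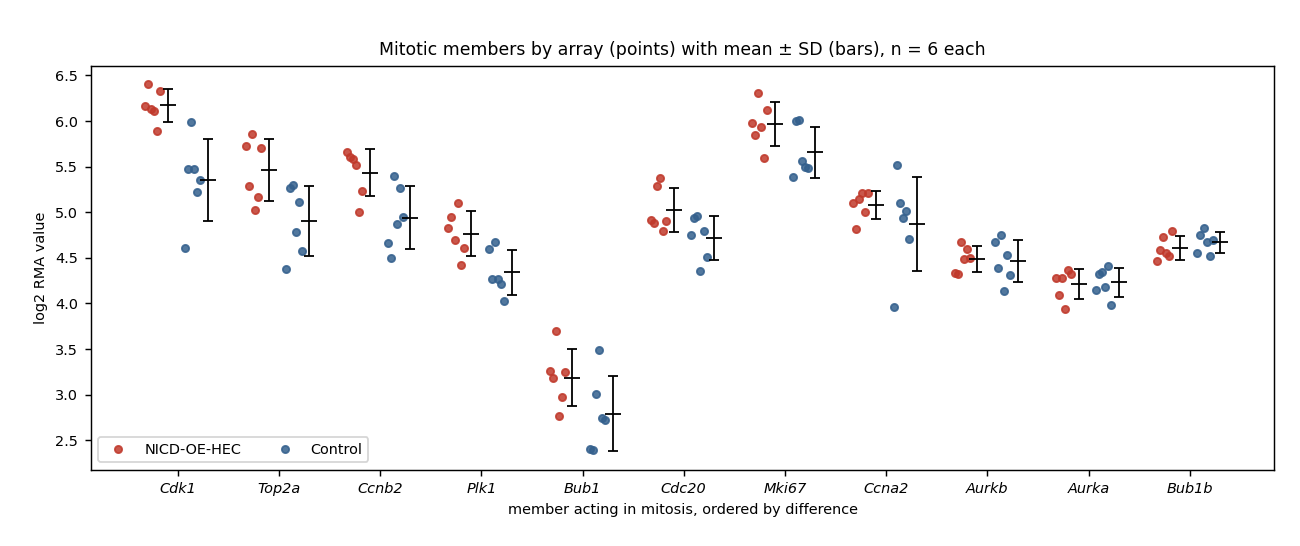
Log2 RMA value (y axis) of 11 mitotic genes on each array, ordered by their difference, with NICD-OE-HEC in red, Control in blue and mean ± SD as bars (n = 6 each). Cdk1 at the left is the only one called, Control replicate 1 is the low point of Cdk1 and Ccna2, and Aurkb, Aurka and Bub1b at the right overlap throughout.

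Other kinases of the family, outside the core cycle, gave 3 calls among 8 genes, 1 higher and 2 lower, beside 10.5% of all probe sets. The 7 kinases grouped under transcription gave 0, and nothing is read from shares of so few genes. Cdk18, a PCTAIRE kinase whose cellular role is little understood, fell. It had 4.22, 4.70 and 5.06 (lowest, median, highest) in NICD-OE-HEC, against 5.16, 5.69 and 6.22 in Control, without overlap. The log2 difference was -1.01 (SE 0.17, 95% interval -1.37 to -0.64, limma adjusted p = 1.00e-03), or 2.01-fold lower, and over single arrays left out it ranged from -1.11 to -0.90. The other PCTAIRE genes Cdk16 and Cdk17 differed by -0.22 and -0.20 without a call.

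Cdk20, a kinase linked to the primary cilium, fell as well. It had 3.79, 4.56 and 4.68 in NICD-OE-HEC, against 4.47, 5.27 and 5.55 in Control. Control replicate 2, at 4.47, lay within the NICD-OE-HEC range, and the other 5 Control arrays were between 5.18 and 5.55. The log2 difference was -0.81 (SE 0.19, 95% interval -1.21 to -0.40, limma adjusted p = 0.0111), and without Control replicate 2 it was -0.96.

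Cdk14, a kinase that works with cyclin Y at the membrane, was higher by 0.39 (SE 0.12, limma adjusted p = 0.0484), but its means of 3.29 in NICD-OE-HEC and 2.90 in Control are both below the array median. It lost its call in 9 of 12 fits that left out a single array, with an adjusted p of up to 0.113. These were the fits without Control replicate 2, 3, 4, 5 or 6 and without NICD-OE-HEC replicate 1, 4, 5 or 6. The kinases grouped under transcription gave 0 calls among 7, and 2 had an unadjusted p under 0.05. All 7 differences were negative, from -0.50 for Cdk10 (limma adjusted p = 0.0812) to -0.01 for Cdk12, with Cdk19 at -0.37 (0.0656). Cdk10 was called without Control replicate 2, and Cdk19 without Control replicate 5.

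Beyond the 70 genes, 10 further lists of cell cycle genes were examined. Of 162 measured genes, 16 were higher and 10 lower, 16.0%, beside 10.5% of all probe sets, with a median difference of 0.04. That count includes the Notch targets Hey1, Nrarp and Hes1. Replication origin and fork genes gave 0 higher and 3 lower of 30 (median -0.14), namely the single-strand binding protein Rpa1 (-0.39, limma adjusted p = 0.0103), the origin subunit Orc3 (-0.37) and the polymerase subunit Pola2 (-0.32). Orc3 and Pola2 lost their calls without the 2 arrays that stood apart (limma adjusted p = 0.120 and 0.109). Orc3 kept its call without Control replicate 1 or 5 or NICD-OE-HEC replicate 5 or 6, and Pola2 without Control replicate 1 or NICD-OE-HEC replicate 5 or 6. With any other array left out they had adjusted p-values of up to 0.0962 and 0.0956. Of 9 nucleotide synthesis genes 0 were called and 2 had an unadjusted p under 0.05, the largest differences being those of Umps (0.38, limma adjusted p = 0.0947) and Rrm2 (0.28, 0.274). The spindle and kinetochore list gave 0 higher and 1 lower of 33 (median 0.13), the chromokinesin Kif4 (-0.52, limma adjusted p = 0.0278), whose means of 2.82 in NICD-OE-HEC and 3.34 in Control are below the array median. Its call was lost without Control replicate 3, 4 or 6 or NICD-OE-HEC replicate 2, 4 or 6 (adjusted p of up to 0.0709).

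Degradation, checkpoint and E2F partner genes gave 3 calls. Of 14 ubiquitin ligase genes of the cycle, the conjugating enzyme Ube2s rose by 0.42 and the anaphase-promoting subunit Anapc2 fell by 0.32, while Skp2, which targets p27 for degradation, differed by -0.04 (limma adjusted p = 0.889). Ube2s lost its call in 8 of 12 fits that left out an array, keeping it without Control replicate 2 or 5 or NICD-OE-HEC replicate 1 or 4 (adjusted p of up to 0.0886 otherwise). Anapc2 lost it in 9 of 12, keeping it without Control replicate 2 or 4 or NICD-OE-HEC replicate 2 (up to 0.0800 otherwise). Of 10 checkpoint genes 0 were called, and 0 had an unadjusted p under 0.05. Among 11 E2F and DREAM complex partners 1 rose. It was Tfdp1, the dimer partner of the E2F factors, at 5.81 ± 0.19 in NICD-OE-HEC and 5.07 ± 0.18 in Control (SD, n = 6 each; log2 difference 0.74, limma adjusted p = 3.41e-04). Foxm1, the activator of mitotic genes, differed by 0.23 (limma adjusted p = 0.460). Of 14 other cyclins 1 rose, Ccnl1 of RNA splicing (0.67).

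The growth, p53 target and quiescence lists held the remaining calls. In the growth list 5 of 14 rose and 1 fell (median 0.37). Myc had 6.50, 7.19 and 8.16 (lowest, median, highest) in NICD-OE-HEC, against 5.26, 5.41 and 5.62 in Control, a log2 difference of 1.73 (limma adjusted p = 8.73e-05). Odc1, the enzyme of polyamine synthesis, rose by 0.66 and the antagonist Mxi1 by 0.57, while the antagonist Mxd4 fell by 0.61. Of 17 p53 target genes 3 rose and 3 fell (median 0.11). Gadd45a (1.28) and Btg2 (0.94), which restrain growth after stress, rose, and Sesn1 (-0.77) and the death receptor Fas (-0.75) fell. Mdm2, a direct target and the inhibitor of p53, differed by 0.11 (limma adjusted p = 0.697). In the quiescence and Notch feedback list 5 of 10 rose and 1 fell, among the rises Hey1 (2.70), Nrarp (1.04), the antiproliferative Btg1 (1.02) and Hes1 (0.76). Hey1, Nrarp and Hes1 are Notch targets, so that count is not evidence about quiescence. Of 12 early-response genes, a class that stress of isolation can switch on, 10 rose on the same arrays, with means of 7.99 to 9.74 in NICD-OE-HEC and 6.66 to 8.13 in Control. Btg2 is itself in that list, and the part of the early response in the values of Myc, Gadd45a, Btg2 and Btg1 was not tested.

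**Figure D5:**
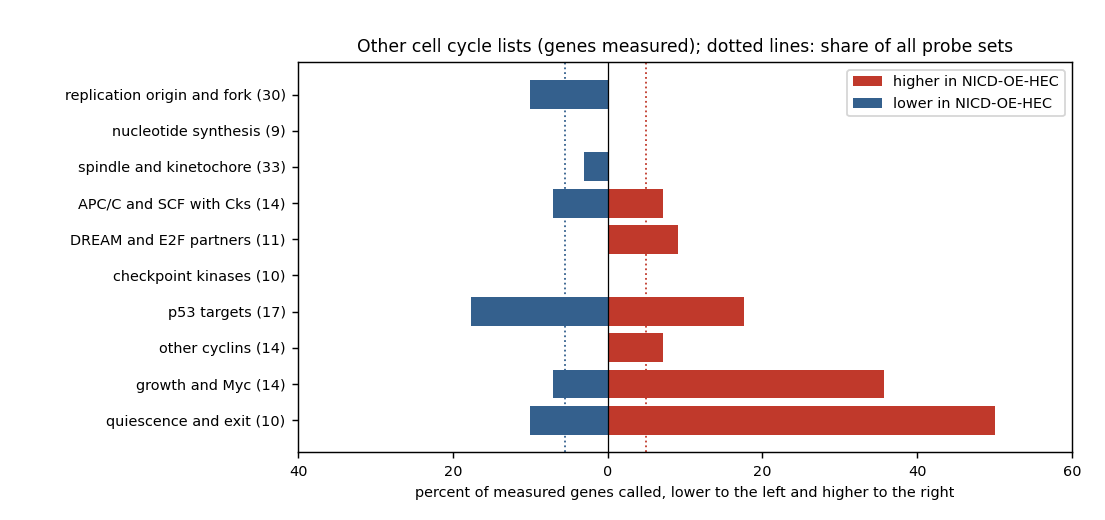
Percent of measured genes called higher (red, to the right) or lower (blue, to the left) in NICD-OE-HEC for 10 lists of other cell cycle genes, with the number measured in brackets and the shares of all probe sets, 4.89% higher and 5.59% lower, as dotted lines. The replication, nucleotide, spindle and checkpoint lists hold 0 genes called higher, and the growth and quiescence lists extend farthest to the right.

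Markers of other cells moved between the groups on the same arrays. Of 8 neutrophil genes 5 rose, and their mean was 4.60 to 6.76 in NICD-OE-HEC and 3.06 to 4.30 in Control. All 8 differences were positive, with a median of 2.45, and Elane (0.06) and Ly6g (0.82) had both group means below the array median. Of 8 hepatocyte genes 5 rose, with means of 7.58 to 8.97 in NICD-OE-HEC and 7.0 to 8.27 in Control. Of 7 cholangiocyte genes 5 rose, with means of 4.45 to 4.80 in NICD-OE-HEC and 3.77 to 4.18 in Control, and of 8 stellate cell and fibroblast genes 3 rose and 1 fell, with means of 5.83 to 6.35 in NICD-OE-HEC and 4.86 to 6.15 in Control. Of 7 platelet genes 2 rose (4.11 to 4.49 in NICD-OE-HEC, 3.89 to 4.17 in Control) and of 8 macrophage genes 1, Marco, rose (7.73 to 9.19 in NICD-OE-HEC, 7.47 to 8.74 in Control). All 8 macrophage differences were positive, with a median of 0.48, and 3 of these genes had an unadjusted p under 0.05.

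Lymphoid and erythroid lists held no call. T and NK cell genes averaged 3.47 to 4.38 in NICD-OE-HEC and 3.62 to 4.09 in Control, B and plasma cell genes 3.17 to 4.01 in NICD-OE-HEC and 3.24 to 3.60 in Control, and 4 erythroid genes, all below the array median, 3.05 to 3.51 in NICD-OE-HEC and 3.02 to 3.23 in Control. In those lists 0 of 8, 1 of 7 and 1 of 4 genes had an unadjusted p under 0.05. As a check of the labelled cell type, 10 sinusoidal endothelial genes were all above the array median, with means of 10.94 to 11.18 in NICD-OE-HEC and 11.26 to 11.56 in Control, while 7 of them fell and 2 rose. The part of these other cells in the values of Cdk6, Cdk1 and the other genes was not tested.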

How the data were processed

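The authors deposited a log2 value for every probe set on every array, and the submitters' processing notes name RMA. Neither the program nor the chip definition behind it is stated in the sources used here. The platform annotation gave 24705 of the 25428 probe sets 1 gene symbol and left 723 unnamed. All 70 genes matched a RefSeq gene table by Entrez identifier, with 0 symbols that differed. Cyclin B1 and a few listed genes were not analysed here.

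From these values, differences were computed as NICD-OE-HEC minus Control in limma 3.58.1 under R 4.3.3 (lmFit, then eBayes, 2 groups, no covariate, no filter), two-sided, with Benjamini-Hochberg adjustment over all probe sets. An adjusted p under 0.05 was a call. SE is limma's moderated error. The number of arrays, 6 a group, limits the precision, and p-values measure the spread between these pools. Paralogue ratios are log2 differences within an array, given without a test. The limma step was tested on simulated data.

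The genes, the lists and the rule for naming were chosen with earlier results of these data known. The rule names every called gene of the 70 with a preselected set of the others, and in each further list up to 4 called genes by size (where a list had none, the 2 genes that differed most), with Myc, Mdm2, Skp2, Foxm1 and Hey1. Other genes named in the text were chosen after their values were seen. The alternatives tried were array weights, median centring, quantile normalization once more, robust eBayes with an intensity trend, a block on replicate number, a log2 threshold of 1, omission of the dimmest 25 or 50 percent, and omission of single arrays or of the 2 that stood apart.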

Additional observations from a re-analysis of the deposited data

Results flagged for a closer look

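Dixon's test was applied to the 70 genes and to 43 of the other genes named, 226 groups of 6 arrays in all. It picked out 19 values that stood far from the other arrays of their group, 8.41% of the groups, where chance gives about 5%. Of these, 11 were among the 70 genes.

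On Control replicate 2, the array that stood apart on the second principal component, Cdc25a was 3.48 (other Control arrays 4.46 to 4.76), Cdc25b 3.65 (4.2 to 4.38), Cdt1 3.48 (4.35 to 4.61) and Cdk20 4.47 (5.18 to 5.55), each the lowest. Cdk7 on that array was the highest at 6.45 (5.91 to 6.11). On other Control arrays, Ccnd1 was lowest on replicate 1 at 8.57 (9.12 to 9.36), Cdk2 lowest on replicate 4 at 5.75 (6.03 to 6.17) and Cdkn3 highest on replicate 3 at 4.38 (3.74 to 3.82). In NICD-OE-HEC, Cdkn2c was lowest on replicate 5 at 5.06 (5.40 to 5.52), and without that array Cdkn2c was called (0.37, limma adjusted p = 0.0438). Cdk13 was lowest on replicate 4 at 6.95 (7.42 to 7.70), and Cdk15, below the array median, was highest on replicate 6 at 3.28 (2.30 to 2.61).

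The other 8 values lay outside the 70 genes. On NICD-OE-HEC arrays, Anapc2 was highest on replicate 2 at 7.16 (6.77 to 6.92) and Btg1 highest on replicate 5 at 7.01 (5.61 to 6.10), while Foxm1 was lowest on replicate 3 at 3.67 (4.12 to 4.24). Chek2 and Ctsl were lowest on NICD-OE-HEC replicate 4, at 3.82 (4.42 to 4.73) and 9.31 (9.78 to 9.97). On Control arrays, Pola2 was lowest on replicate 1 at 6.68 (7.04 to 7.11), and Plagl1 and Igf2 were lowest on replicate 2, at 4.68 (5.65 to 5.81) and 3.28 (4.43 to 4.94).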

How the results depend on the processing

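Median centring and a further quantile normalization left the counts at 4 higher and 4 lower. Without the dimmest 50 percent of probe sets, a fit in which fewer were tested, 7 genes were higher, and with array weights 7 were lower. The cause of either change was not tested. Under the further log2 threshold of 1, 1 was higher (Cdk6) and 1 lower (Cdk18). Over single arrays left out, 3 to 6 were higher and 3 to 6 lower. In the further cell cycle lists 13 to 17 genes were higher and 5 to 10 lower over single arrays left out. The lower count was 5 without Control replicate 3, 6 without Control replicate 6 and 6 without NICD-OE-HEC replicate 4. Under that threshold those lists gave 5 higher and 0 lower.

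Samples of the 2 groups share replicate numbers, and the deviations of same-numbered arrays correlated at -0.10 to 0.22. For NICD-OE-HEC replicates 1 (0.22) and 5 (0.18) the best match in Control had the same number, and for the other replicates it did not. The samples were therefore treated as unpaired in the main fit, and whether same-numbered samples shared a preparation was not tested. With the replicate block 8 of the 70 genes were called, 4 in each direction and 7 shared with the fit without it. Mcm3 lost its call (limma adjusted p = 0.0652) and Cdk19 gained it. In the further lists 5 genes were lower, against 10 in the fit without the block. Among the calls lost were those of Orc3 (limma adjusted p = 0.0784), Pola2 (0.0853), Kif4 (0.0605) and Anapc2 (0.0588).

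Directions turned only for values near 0. Aurka was 0.0197 with array weights and 0.0544 without the 2 outlying arrays, where E2f1 was -0.0273. Over single arrays left out, Aurka ranged from -0.0693 to 0.0351, Ccne1 from -0.0760 to 0.10, Cdk2 from -0.0417 to 0.0650, E2f1 from -0.0205 to 0.0731, Rbl1 from -0.0323 to 0.0775 and Skp2 from -0.12 to 0.00340. Cdk14 was not called with the intensity trend (limma adjusted p = 0.0581) or without the 2 outlying arrays (0.118). Cdk6, Cdk1, Cdkn1c, Ccnd2, Cdk18 and Cdk20 kept their calls under every alternative but the log2 threshold of 1, which Cdk6 and Cdk18 passed. Levels under the array median limit Cdk14, Bub1, Cdc6 and 8 further genes.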

Other observations

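Cdkn1c is expressed from the maternal copy only, and other imprinted genes differed too, in a list of 26 such genes drawn up after the values were seen. Of these, 7 were higher and 2 lower in NICD-OE-HEC, beside 4.89% higher and 5.59% lower of all probe sets. The list holds Cdkn1c itself and was chosen with the pattern in view, so its count is a description only. Besides Cdkn1c the genes called higher were H19 (4.88), Plagl1 (2.12), Igf2 (1.78), Mest (1.51), Slc38a4 (0.88) and Igf2r (0.61), and those called lower were Kcnq1 (-0.67) and Sgce (-0.64). H19 averaged 8.06 in NICD-OE-HEC and 3.18 in Control, the Control level lying below the array median. The measured protein-coding neighbours of Cdkn1c on its chromosome went different ways. Kcnq1, on one side, fell, while Slc22a18 and Phlda2 on the other side differed by 0.21 and 0.24 without a call.

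Gene order in the RefSeq table, limited to protein-coding genes measured on the arrays, gave 30 neighbours of the 8 called genes. These were up to 2 on each side on the same chromosome. Of these, 4 were called, 13.3%, beside 10.5% of all probe sets. They were Fgf23 near Ccnd2 (3.34), Klhdc8a near Cdk18 (-1.08), Ctsl beside Cdk20 (-0.81) and Kcnq1 beside Cdkn1c (-0.67). Tigar lay between Fgf23 and Ccnd2, and Lemd1 between Cdk18 and Klhdc8a, both without a call. Thus 1 rose near a gene that fell, 2 fell near genes that fell, and 1 fell next to a gene that rose.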
